A study of Mus musculus with 10 samples.

Results

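The genes described here are the mitosis and kinetochore genes of 4T1 cells, a mouse mammary carcinoma line. They were taken from a list of 38 genes that act between the G2 phase and the end of cell division. A gene was read from the array row that names it alone, and from its brightest such row where it has several. Of the 38, 36 had a single-gene row, all 36 passed the signal floor of log2 5.24, and they are 36 of the 17800 genes tested. Each of the 36 had 1 row. Ccnb1 (cyclin B1) and Foxm1 (a transcription factor of G2 and mitosis) had no such row and were not analysed here. The study grew 4T1 cells for 5 days in gels of low collagen density (LD, 2 mg/mL, 5 arrays) or high collagen density (HD, 3.5 mg/mL, 5 arrays), and LD serves as the control. Both groups were the same line in RPMI medium with serum, and the labels name no genetic change or drug in either. Total RNA was read on Affymetrix MTA 1.0 arrays, 1 colour and 1 sample each, and the unit is the log2 RMA signal. The labels do not say that the 5 samples of a group were separate cultures, so the p-values rest on sample-to-sample spread that could be technical.

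In mitosis, CDK1 bound to A- and B-type cyclins drives entry, and the spindle then captures each chromosome at its kinetochore, a protein plate built on centromeric chromatin. The spindle checkpoint holds the anaphase-promoting complex inactive until every kinetochore is attached. Most of these genes are transcribed late in the cell cycle, so in bulk RNA from a carcinoma line their level follows how many cells are dividing. In such bulk samples, a change in the number of dividing cells and a change in mitotic RNA per cell cannot be told apart.

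Most of the mitosis genes were slightly higher in HD. With limma, 29 of 36 rose at an adjusted p under 0.05 (80.6%), against 31.4% of all genes tested, and none fell, against 19.5% of all genes. At an unadjusted p under 0.05 the limma counts were 30 higher and 0 lower, and the share of all genes at that threshold was not counted. The changes were small: the median log2 change was 0.18 (1.14-fold), beside 0.06 over all genes tested, and the median SD between arrays was 0.072 in LD and 0.067 in HD. Nuf2, Spc24 and Mad2l1 rose by 1.44-fold, 1.41-fold and 1.37-fold, and no other member exceeded 1.23-fold. In 19 members every HD array was above every LD array (21.6% of all genes tested), and in none was every HD array below every LD array (15.1% of all genes). The 7 members that did not pass the test were Cdc20, Cenpe, Cenpf, Ndc80, Prc1, Nusap1 and Mki67.

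The count depended on how the arrays were scaled. The array's negative and positive control rows moved with collagen density. In LD the median of the 5222 negative control rows was 5.67 ± 0.052 (SD, n = 5), against 5.42 ± 0.12 in HD. The 1324 positive control rows gave 9.21 ± 0.011 in LD against 9.28 ± 0.045 in HD. Both shifts had p = 0.0079 in an exact permutation test (two-sided), and no smaller value is possible with 5 arrays a group. The 23 background control rows moved against the negative rows, from 3.47 ± 0.055 (SD) in LD to 3.63 ± 0.057 in HD (exact permutation p = 0.0079). The 155 ERCC control rows read 4.43 in LD and 4.52 in HD (exact permutation p = 0.11). Neither of these classes was used for scaling. What the negative and positive rows measure is not stated in the sources used, and they were classed by their names. In the scaling called control-row scaling below, each array was mapped linearly so that the negative and positive medians were equal on all arrays. With it, 12 members rose (33.3%, against 49.4% of all genes tested) and 3 fell (8.33%, against 19.1% of all genes). The members' median change was then 0.05, below the 0.13 of all genes tested. Quantile normalization left 26 members higher (42.9% of all genes) and 0 lower (16.6%). Centring each array on its median left 24 higher (30.5% of all genes) and 0 lower (18.4%). Members called higher under all 4 scalings, and also when any 1 array was left out, were Cdk1, Mad2l1, Ttk, Aurkb, Birc5, Kif4, Kif18a, Cenpk, Nuf2, Spc24, Spc25 and Hmmr. The control-row scaling acts on signal: across the 36 members, which are not independent replicates, the Spearman correlation of the change with the mean signal was -0.09 as deposited and -0.67 after it, beside 0.04 and -0.55 across all genes tested. Which scaling is closer to the RNA content of the cells was not tested.

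The arrays of a group differed among themselves in a way most members shared. The mean of the 36 signals was 9.55, 9.62, 9.64, 9.53 and 9.69 in LD replicates 1 to 5, and 9.85, 9.80, 9.74, 9.75 and 9.81 in HD replicates 1 to 5. LD replicate 4 was the lowest of the 10 arrays for 23 members and HD replicate 1 the highest for 21. After control-row scaling the array means ran from 9.58 to 9.75 in LD and from 9.66 to 9.81 in HD, so that the groups overlapped.

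**Figure D1:**
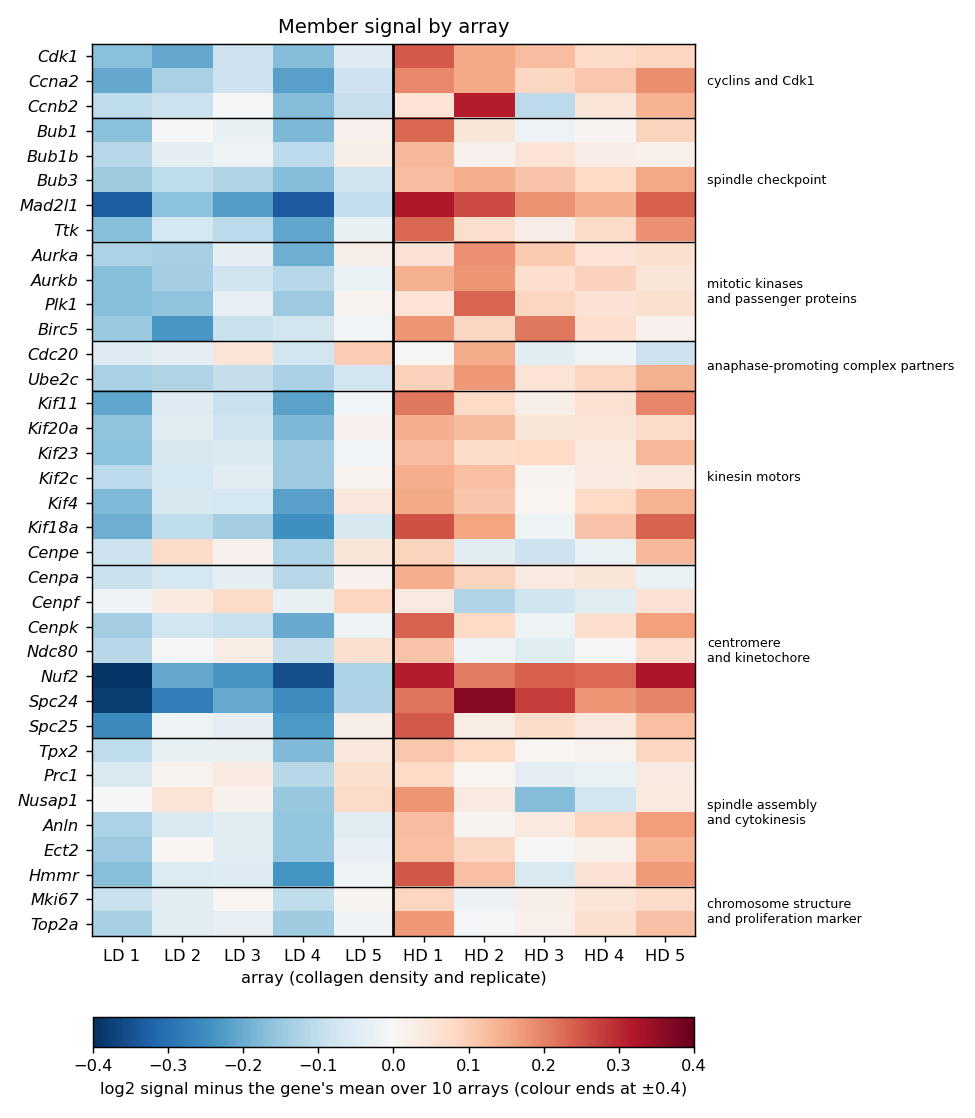
Signal of each of the 36 members (rows, by role) on each of the 10 arrays (columns), drawn as the log2 signal as deposited minus the gene's mean over the 10 arrays. Red is above and blue below that mean; Nuf2, Spc24 and Mad2l1 show the strongest contrast between LD and HD, LD replicates 1 and 4 are lowest for most rows, and rows such as Cenpf, Cdc20 and Prc1 show none.

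Promoters of the mitosis genes often hold the letters of known cell cycle elements, which is why some are printed here. The cell cycle homology region, bound by the MuvB complex, has the core TTTGAA, and the CCAAT box is bound by NF-Y. RefSeq promoters (GRCm38.p6) were found for 32 of the 38 listed genes, with 37 start sites. In the 250 bases before the start, on either strand, CCAAT was present in 29 of 37 promoters (78.4%), beside 33.8% of all 32851 promoters in the table. TTTGAA was present in 13 (35.1%), beside 16.0%, and both in 12 (32.4%), beside 5.55%. Genes that rose and genes that did not pass the test had similar shares: CCAAT stood in 22 of 28 and 6 of 8 promoters, and TTTGAA in 10 of 28 and 3 of 8. A match of letters is a description and no evidence of binding. Shown first are the regulators Cdk1, Top2a and Mki67, chosen after their matches were seen because each holds both motifs, with capitals marking both motifs on either strand. The Cdk1 sequence lies at chr10:69352913-69353162, minus strand, Top2a at chr11:99024190-99024439, minus strand, and Mki67 at chr7:135716380-135716629, minus strand. In Cdk1 the cores end 66 and 10 bases before the start.
Cdk1: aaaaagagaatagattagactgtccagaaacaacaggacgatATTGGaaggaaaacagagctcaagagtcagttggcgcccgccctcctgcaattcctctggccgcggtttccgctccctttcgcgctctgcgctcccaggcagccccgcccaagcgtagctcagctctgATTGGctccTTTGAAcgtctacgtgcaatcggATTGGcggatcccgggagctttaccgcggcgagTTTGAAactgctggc
Top2a: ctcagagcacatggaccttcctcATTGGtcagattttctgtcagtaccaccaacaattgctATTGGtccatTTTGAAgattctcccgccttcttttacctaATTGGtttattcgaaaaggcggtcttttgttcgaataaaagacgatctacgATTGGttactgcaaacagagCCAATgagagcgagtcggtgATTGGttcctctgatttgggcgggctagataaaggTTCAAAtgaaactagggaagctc
Mki67: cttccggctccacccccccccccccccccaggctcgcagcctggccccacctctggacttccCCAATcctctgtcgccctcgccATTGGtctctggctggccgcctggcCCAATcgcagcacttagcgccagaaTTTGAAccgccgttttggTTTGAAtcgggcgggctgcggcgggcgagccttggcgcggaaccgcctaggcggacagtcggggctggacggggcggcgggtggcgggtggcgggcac
The next set holds 2 of the 3 members that rose most, Nuf2 (chr1:169531465-169531714, minus strand) and Mad2l1 (chr6:66534971-66535220, plus strand), and the member with the smallest change, Nusap1 (chr2:119618048-119618297, plus strand). None of these 3 windows holds either motif. The second-ranked Spc24 and the cyclin gene Ccna2 are named only.
Nuf2: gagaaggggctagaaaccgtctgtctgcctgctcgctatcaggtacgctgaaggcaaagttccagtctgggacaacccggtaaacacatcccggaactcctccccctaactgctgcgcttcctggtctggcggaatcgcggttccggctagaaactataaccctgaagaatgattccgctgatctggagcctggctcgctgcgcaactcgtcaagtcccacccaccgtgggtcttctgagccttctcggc
Mad2l1: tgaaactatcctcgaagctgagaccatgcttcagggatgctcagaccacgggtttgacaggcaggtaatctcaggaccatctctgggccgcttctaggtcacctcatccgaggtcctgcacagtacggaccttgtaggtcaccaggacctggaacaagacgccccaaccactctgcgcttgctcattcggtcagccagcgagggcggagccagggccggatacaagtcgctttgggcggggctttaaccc
Nusap1: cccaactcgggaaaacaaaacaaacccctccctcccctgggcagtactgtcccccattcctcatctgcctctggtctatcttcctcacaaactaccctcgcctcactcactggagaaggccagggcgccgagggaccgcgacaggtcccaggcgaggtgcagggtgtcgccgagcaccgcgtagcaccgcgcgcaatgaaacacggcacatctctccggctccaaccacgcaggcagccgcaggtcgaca

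The signal of Cdk1 and the measured cyclin genes was higher in HD as deposited: all 3 measured genes of this group rose, against 31.4% of all genes tested. Only Cdk1 also rose after control-row scaling (33.3% of the group, against 49.4% of all genes). Ccnb2 was then fitted below 0 (-0.06). Cdk1 encodes the kinase that starts mitosis. In LD, Cdk1 read 9.37, 9.33, 9.45, 9.36 and 9.48, and in HD 9.78, 9.68, 9.65, 9.61 and 9.62. Every HD array lay above every LD array, a 1.21-fold rise (log2 change 0.27 ± 0.043 SE, limma adjusted p = 1.5e-04; 0.18 after control-row scaling, adjusted p = 0.0052). Ccna2, cyclin A2, acts with CDK kinases in S phase and G2. Its signal was 10.75, 10.83, 10.87, 10.74 and 10.87 in LD and 11.15, 11.11, 11.04, 11.06 and 11.14 in HD. The groups did not overlap (1.22-fold, limma adjusted p = 5.0e-05), but its log2 change of 0.29 shrank to 0.08 after control-row scaling, which ended the call (adjusted p = 0.19). Ccnb2, cyclin B2, rose 1.13-fold (limma adjusted p = 0.030), with an uneven HD group that ran from 11.25 to 11.67 and overlapped LD, and median centring ended the call (adjusted p = 0.0501).

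All 5 measured spindle checkpoint genes rose as deposited, against 31.4% of all genes tested, with a median log2 change of 0.23. After control-row scaling 2 of them, Mad2l1 and Ttk, also rose (40.0%, below the 49.4% of all genes tested), and Bub3 turned to -0.01. Mad2l1 encodes MAD2, the protein that binds and inhibits CDC20. Mad2l1 read 9.31, 9.47, 9.41, 9.30 and 9.54 in LD against 9.96, 9.90, 9.82, 9.78 and 9.87 in HD. The highest LD array was well below the lowest HD array (1.37-fold, log2 change 0.46 ± 0.051 SE, limma adjusted p = 7.2e-06). Ttk, the kinase MPS1 that recruits checkpoint proteins to kinetochores, rose 1.18-fold. Bub3, a WD-repeat adaptor for the BUB kinases, rose 1.19-fold with the smallest HD spread of the group (SD 0.029). Its partners Bub1 and Bub1b (BUBR1) rose least, 1.10-fold and 1.07-fold, with overlapping groups and limma adjusted p of 0.041 and 0.048, close to the threshold. Quantile normalization and median centring each ended the calls of Bub1 and Bub1b.

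The 4 mitotic kinase and passenger genes all rose as deposited, against 31.4% of all genes tested, and by nearly the same amount, 1.14-fold to 1.17-fold. In each, every HD array was above every LD array, as in 21.6% of all genes tested. Aurkb (Aurora B) and Birc5 (survivin) are parts of the chromosomal passenger complex, which corrects faulty kinetochore attachments. In LD, Aurkb read 9.21, 9.25, 9.30, 9.27 and 9.35, and in HD 9.53, 9.56, 9.45, 9.47 and 9.43 (log2 change 0.21 ± 0.039 SE, limma adjusted p = 5.1e-04). Birc5 was 8.29, 8.20, 8.35, 8.36 and 8.42 in LD and 8.61, 8.52, 8.65, 8.50 and 8.45 in HD (0.22 ± 0.049 SE, limma adjusted p = 0.0020). Its gap between groups was narrow, since the highest LD array (8.42) nearly reached the lowest HD array (8.45). The rises of Aurkb and Birc5 also passed after control-row scaling (0.14 and 0.23), which is 50% of the group beside 49.4% of all genes tested. Aurka (Aurora A) serves spindle poles. Aurka values were 9.45, 9.45, 9.54, 9.39 and 9.60 in LD and 9.64, 9.76, 9.69, 9.63 and 9.64 in HD, a change of 0.19 (limma adjusted p = 0.0039). Plk1, polo-like kinase 1, acts from mitotic entry to cytokinesis. Plk1 stood at 10.37, 10.38, 10.51, 10.39 and 10.55 in LD and at 10.59, 10.77, 10.63, 10.60 and 10.60 in HD, a change of 0.20 (limma adjusted p = 0.0039). HD replicate 2 was far above the other 4 HD arrays of Plk1. The gaps of Aurka and Plk1 were also narrow: the highest LD arrays read 9.60 and 10.55, and the lowest HD arrays 9.63 and 10.59. Neither call held after control-row scaling, with Aurka at 0.09 and Plk1 at 0.02 (adjusted p = 0.10 and 0.68).

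The pair of genes that work with the anaphase-promoting complex parted as deposited. Ube2c, its E2 ubiquitin-conjugating enzyme, read 10.63, 10.64, 10.67, 10.63 and 10.68 in LD and 10.85, 10.94, 10.81, 10.85 and 10.90 in HD. These were among the tightest groups of the list and did not overlap (1.16-fold, limma adjusted p = 1.3e-04), but the change fell from 0.22 to 0.03 after control-row scaling (adjusted p = 0.60). Cdc20, the activator that MAD2 inhibits, differed by 0.01 (95% interval -0.10 to 0.11, limma adjusted p = 0.93), and by -0.04 after control-row scaling.

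Of the 7 kinesin motors, 6 rose (85.7%, against 31.4% of all genes tested), by 1.10-fold to 1.23-fold, and Cenpe did not pass the test. Kif18a, which dampens chromosome movements at the metaphase plate, changed most. In LD, Kif18a read 7.57, 7.67, 7.63, 7.52 and 7.70, and in HD 8.02, 7.92, 7.75, 7.88 and 8.002. The groups did not overlap, although HD replicate 3 came close to LD (log2 change 0.30 ± 0.054 SE, limma adjusted p = 4.2e-04; 0.36 after control-row scaling). Kif11, the Eg5 motor that separates spindle poles, rose 1.17-fold. Kif4, a chromokinesin, rose 1.15-fold, and Kif20a and Kif23, both motors of the central spindle, rose 1.13-fold each. Kif2c, the microtubule depolymerase MCAK, rose 1.10-fold. After control-row scaling Kif18a and Kif4 were the motors still called higher (28.6% of the 7, below the 49.4% of all genes tested). Cenpe, the kinesin that carries chromosomes to the plate, differed by 0.03 (95% interval -0.09 to 0.14), and by -0.11 after control-row scaling.

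Of the 7 kinetochore genes, 5 rose as deposited (71.4%, against 31.4% of all genes tested) and 0 fell (against 19.5%). After control-row scaling 4 rose (57.1%, against 49.4% of all genes) and 1, Cenpf, was lower (against 19.1% of all genes). The group spread more widely than any other role group of the list, from -0.06 to 0.52 on the log2 scale as deposited. The 4 subunits of the NDC80 complex, the kinetochore's microtubule hook, gave most of that spread. Nuf2, which pairs with NDC80 at the microtubule end, read 8.63, 8.82, 8.79, 8.67 and 8.90 in LD and 9.34, 9.23, 9.26, 9.25 and 9.35 in HD. This was the largest change among the members, 1.44-fold, with the groups far apart (0.52 ± 0.050 SE, limma adjusted p = 2.0e-06; 0.48 after control-row scaling). Spc24, of the inner pair that faces the chromosome, read 8.53, 8.64, 8.71, 8.65 and 8.78 in LD and 9.12, 9.27, 9.18, 9.08 and 9.11 in HD. It rose 1.41-fold (limma adjusted p = 3.7e-06; 0.46 after control-row scaling). Its partner Spc25 had 7.37, 7.60, 7.59, 7.39 and 7.64 in LD and 7.87, 7.65, 7.69, 7.67 and 7.74 in HD. The gap there was minimal, and the rise was 1.15-fold (limma adjusted p = 0.012). Ndc80 itself read 9.19, 9.30, 9.33, 9.21 and 9.37 in LD and 9.42, 9.29, 9.25, 9.30 and 9.37 in HD. These groups overlapped widely, at a change of 0.05 (95% interval -0.05 to 0.14, limma adjusted p = 0.40; -0.02 after control-row scaling).

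The unequal change of the NDC80 subunits was tested within arrays, after their values were seen, as the HD minus LD shift of the difference between 2 subunits on the same array. All 6 pairs were compared with a two-sided exact permutation test over the 10 arrays, adjusted over the pairs. That adjustment does not cover the choice of this complex by its values, so the p-values describe differences already seen. Nuf2 rose more than Ndc80 by 0.48 and Spc24 more than Ndc80 by 0.45, and Spc25 more than Ndc80 by 0.16 (exact adjusted p = 0.012 each). Nuf2 exceeded Spc25 by 0.32 (exact adjusted p = 0.012) and Spc24 exceeded Spc25 by 0.29, with overlapping groups (exact adjusted p = 0.019). Nuf2 and Spc24 differed by 0.03 (exact adjusted p = 0.60). After control-row scaling the 3 differences from Ndc80 were 0.50, 0.48 and 0.30, and those of Nuf2 and Spc24 from Spc25 shrank to 0.20 and 0.17 (exact adjusted p = 0.012 and 0.029). Array rows can respond with different slopes to the same change in RNA, so the differences are between array rows.

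**Figure D2:**
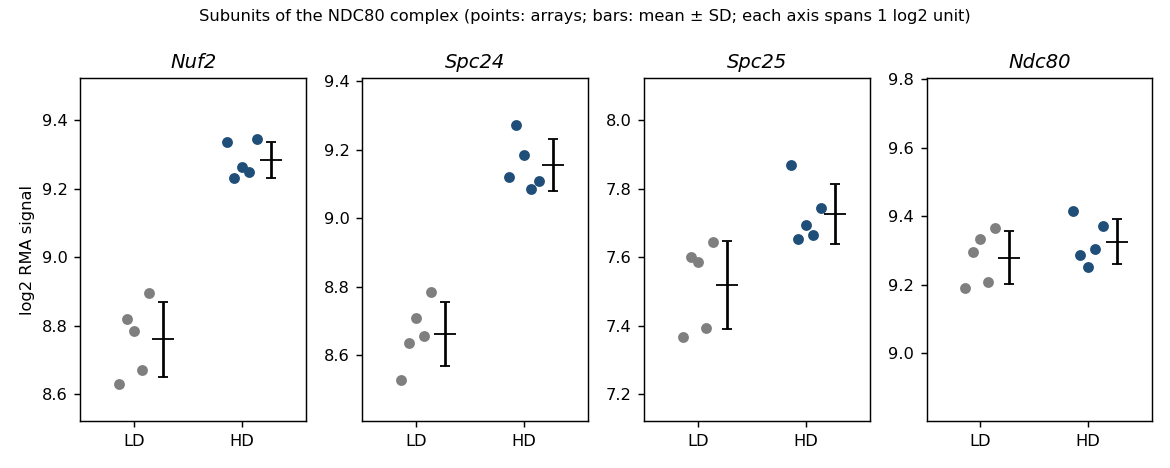
Log2 RMA signal as deposited of the 4 NDC80 complex subunits on the 5 LD and 5 HD arrays; points are arrays and bars the mean ± SD, and each vertical axis spans 1 log2 unit around the gene's mean. Nuf2 and Spc24 are shifted by 0.52 and 0.49 without overlap, Spc25 by 0.21, and the Ndc80 groups overlap at 0.05 (-0.02 after control-row scaling).

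Of the other centromere genes, Cenpa, the histone H3 variant that marks the centromere, rose 1.08-fold (limma adjusted p = 0.029), a call that ended after control-row scaling (adjusted p = 0.087), median centring (0.051) and with no filter (0.051). Cenpk, of the constitutive centromere network, was the dimmest member (6.52 ± 0.068 (SD, n = 5) in LD, 6.73 ± 0.098 in HD) and rose 1.16-fold, and by 0.37 on the log2 scale after control-row scaling. Cenpf, a large kinetochore and nuclear matrix protein of G2 and mitosis, was the single member fitted lower. Cenpf values were 9.92, 9.98, 10.01, 9.91 and 10.03 in LD and 9.97, 9.82, 9.86, 9.89 and 10.00 in HD. These overlapped as deposited (-0.06, 95% interval -0.15 to 0.03, limma adjusted p = 0.24), and Cenpf was lower after control-row scaling (-0.18, adjusted p = 0.0088).

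In spindle assembly and cytokinesis, 4 of 6 genes rose as deposited (66.7%, against 31.4% of all genes tested). After control-row scaling Hmmr was the single rise (16.7%, against 49.4% of all genes). Tpx2, Anln and Ect2 were then fitted below 0 and Prc1 was lower. Hmmr, a spindle-associated hyaluronan receptor, read 9.18, 9.29, 9.30, 9.11 and 9.33 in LD and 9.60, 9.47, 9.29, 9.41 and 9.52 in HD. HD replicate 3 lay within the LD range (1.16-fold, limma adjusted p = 0.0084). Anln (anillin, the scaffold of the contractile ring) rose 1.13-fold, and Ect2, the exchange factor that activates RhoA there, 1.11-fold. Tpx2, the activator of Aurora A on the spindle, rose 1.09-fold (limma adjusted p = 0.037), a call that ended after quantile normalization (adjusted p = 0.10) and median centring (0.069). Prc1, the bundler of the central spindle, differed by 0.02 (95% interval -0.07 to 0.11), and by -0.12 after control-row scaling (adjusted p = 0.042). Nusap1, a microtubule-binding spindle protein, differed by 0.0011, with the widest spread of the group (SD 0.13 in HD).

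The common proliferation markers moved little. Mki67, which coats mitotic chromosomes and is the Ki-67 antigen of tumour grading, was the brightest member. In LD, Mki67 read 11.74, 11.79, 11.84, 11.73 and 11.84, and in HD 11.92, 11.81, 11.86, 11.89 and 11.91. One HD array lay inside the LD range, and the change of 0.09 missed the threshold (95% interval 0.0051 to 0.17, limma adjusted p = 0.070); without HD replicate 2 it passed (adjusted p = 0.034). After control-row scaling Mki67 was lower (-0.20, adjusted p = 0.016). Top2a, the topoisomerase that untangles sister chromatids, read 10.93, 11.02, 11.04, 10.93 and 11.05 in LD and 11.24, 11.06, 11.09, 11.13 and 11.19 in HD. The groups touched without overlap (1.11-fold, limma adjusted p = 0.013), and after control-row scaling the change was -0.07 (adjusted p = 0.33).

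**Figure D3:**
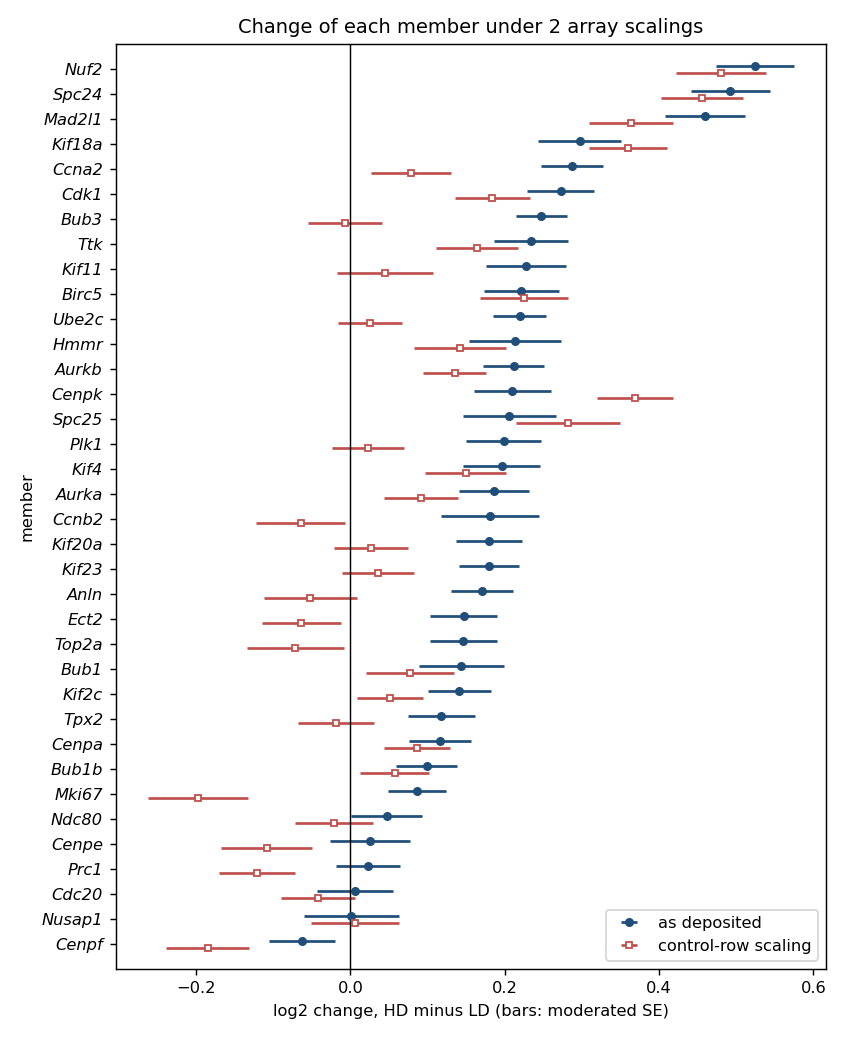
Log2 change (HD minus LD, 5 arrays each, bars are the moderated SE) of the 36 members as deposited (filled circles) and after control-row scaling (open squares), ordered by the change as deposited. Nuf2 and Spc24 lead under both. Mad2l1 follows them as deposited (0.46), but after control-row scaling Cenpk (0.37) stands just above Mad2l1 (0.36). Bright genes such as Mki67 (0.09 and -0.20) and Top2a (0.15 and -0.07) cross 0, and dim ones such as Cenpk (0.21 and 0.37) move up.

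A wider list of 102 further mitosis genes gave 98 tested genes, and among these 61 rose (62.2%, against 31.4% of all genes tested) and 5 fell (5.10%, against 19.5%), with a median of 0.15. After control-row scaling 48 rose, which at 49.0% is the share of all genes tested (49.4%), and 10 fell (10.2%, against 19.1%); the median of 0.12 was also near the 0.13 of all genes. Of its other kinetochore genes 19 of 28 rose (67.9%; 2 fell, median 0.23), and 20 of 28 after control-row scaling (71.4%, against 49.4% of all genes; 3 fell, median 0.29). Of its other spindle and cytokinesis genes 14 of 19 rose (73.7%; 1 fell), and 8 of 19 after control-row scaling (42.1%; 1 fell). The largest rises were in Trip13, the ATPase that remodels MAD2 (0.76 ± 0.061 SE, limma adjusted p = 4.3e-07), Cenpq of the constitutive centromere network (0.55) and Mis18a, a loader of the centromeric histone (0.54). The largest falls were in Zwint (-0.27), a kinetochore scaffold, Numa1 (-0.22), which anchors spindle poles, and Cenpt (-0.21), which tethers the NDC80 complex. These 6 calls also held after control-row scaling. Of 8 condensin genes, 5 rose (62.5%, against 31.4% of all genes) and 0 fell (against 19.5%) as deposited. Of 17 genes of the anaphase-promoting complex 10 rose (58.8%) and 1 fell (5.88%). With control-row scaling 5 condensin genes rose (62.5%, against 49.4% of all genes) and 1 fell (12.5%, against 19.1%). Of the complex, 6 genes then rose (35.3%, below the 49.4% of all genes) and 2 fell (11.8%, against 19.1%).

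Of 9 measured genes of the MuvB complex and its E2F and pocket protein partners, 7 rose and 2 fell, against 31.4% and 19.5% of all genes tested. After control-row scaling 6 rose and 2 fell, against 49.4% and 19.1% of all genes. The 2 that fell were Rbl2 (p130, the repressor of resting cells, -0.35, limma adjusted p = 1.4e-05) and Lin37 (-0.12, limma adjusted p = 0.032), a MuvB subunit, and both were also lower after control-row scaling. Mybl2 (B-MYB, the activator that joins MuvB before G2) rose by 0.46 (limma adjusted p = 3.6e-05) and by 0.41 after control-row scaling; these names were chosen after their values were seen.

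For comparison with the preceding phase, 31 of 32 DNA replication genes rose (96.9%, against 31.4% of all genes tested). Their median log2 change was 0.34, against 0.06 over all genes. After control-row scaling 28 rose (87.5%, against 49.4% of all genes), with a median of 0.25 against 0.13. The medians of the mitosis members were 0.18 as deposited and 0.05 after that scaling. The difference between the lists was not tested.

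**Figure D4:**
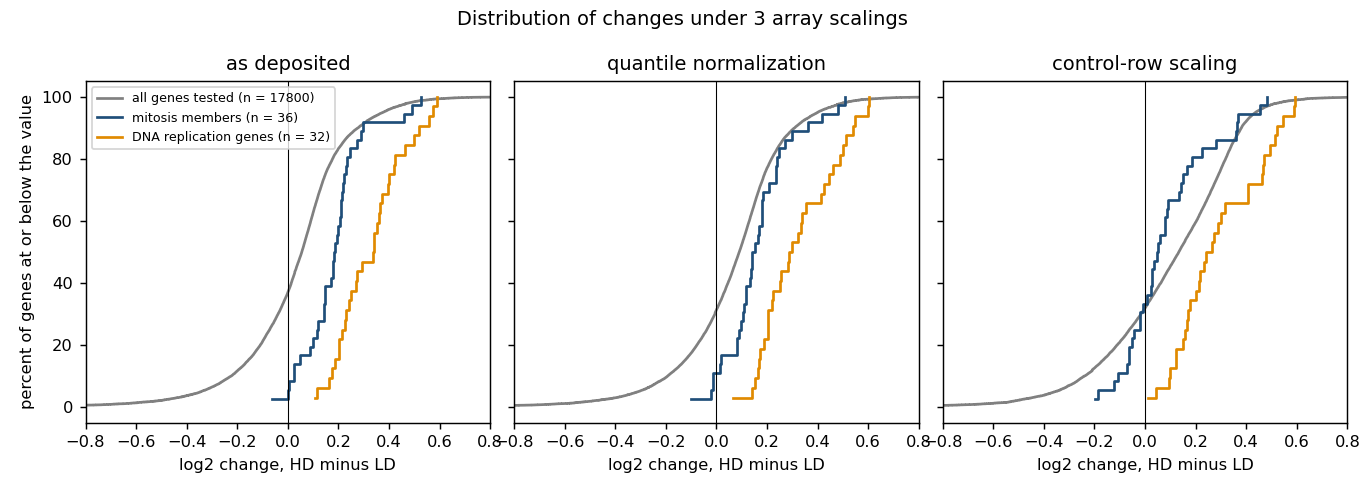
Cumulative share of genes (percent, vertical) against the log2 change HD minus LD (horizontal, shown from -0.8 to 0.8) for all 17800 genes tested (grey), the 36 mitosis members (blue) and 32 DNA replication genes (orange), as deposited, after quantile normalization and after control-row scaling. The blue median lies right of the grey median in the first panel (0.18 and 0.06) and left of it in the last (0.05 and 0.13). The orange median is 0.34 in the first panel and 0.25 in the last.

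The cells carried the marks of their label. Of the epithelial markers, Krt8 and Krt18 stood near 12 on the log2 scale, and Epcam, Cdh1 and Krt19 between 8.96 and 10.8. The immune marker Ptprc read 3.09 in LD and 3.14 in HD, the endothelial markers Pecam1 and Cdh5 4.42 to 4.90, and Cd3e, Pdgfrb and Thy1 5.29 to 5.65, near the negative control rows. Cd14, a monocyte marker, read 7.46 and 7.72. All but Krt8 of the 5 epithelial markers were lower in HD: Epcam fell by 0.60 and Krt19 by 0.76 (limma adjusted p = 2.2e-06 and 7.9e-07), Cdh1 by 0.105 and Krt18 by 0.13 (0.018 and 0.0091). Of the 7 markers of other cell types, 4 passed the signal floor and 3 of these rose: Cd14 by 0.26, more than the members' median of 0.18, Cd3e by 0.16 and Thy1 by 0.12 (limma adjusted p = 0.014, 0.022 and 0.012). Pdgfrb differed by 0.11 (adjusted p = 0.099). Their part in the results above was not tested.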

How the data were processed

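RNA of 10 samples was measured. The deposited values are log2 signals; RMA is the tool named in the submitters' processing notes. It corrects background, makes array distributions alike and combines probes into rows, and it compresses folds. Its version and the genome build are not stated in the sources used. The log2 scale was inferred from the range of values, 1.49 to 14.3. No array had a total depth; the number of arrays limits precision. No pair of arrays held identical values.

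Rows were named from the platform annotation (30604 single-symbol rows, 827 symbols updated through RefSeq gene IDs). The brightest row stood for a gene and had to exceed log2 5.24, the median over rows of the mean signal, which left 17800 genes. The fit of HD against LD used lmFit and eBayes (limma 3.58.1, R 4.3.3) without covariates; two-sided p-values were adjusted by Benjamini-Hochberg across those genes, and 0.05 was the threshold. Role groups and wider lists were described by counts and medians. All 38 members are named; values per array are given for the largest change in each direction within a role group, for the hub regulators and, by later choice, for the NDC80 complex. From the wider mitosis list the 3 largest changes in each direction are named. The members and lists were chosen with earlier results of these data known. Same-numbered arrays deviated together with correlations of -0.091 to 0.22, so numbers were not treated as pairs. On simulated data with the spreads of these 17800 genes, limma recovered 4% of 50 genes changed by 0.1 on the log2 scale, 68% at 0.25, 96% at 0.5 and 100% at 1. It also called 9 unchanged genes. Far fewer genes were changed there than were called in the data (5589 higher and 3467 lower). An adjusted p of 0.05 was therefore stricter there, and these rates do not give the power in the data. Alternatives were 3 further scalings, 2 filters, row averaging, variance models, array weights, a replicate block and leaving out each array.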

Additional observations from a re-analysis of the deposited data

Results flagged for a closer look

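Plk1 in HD had 1 array far from the others: replicate 2 read 10.77, while the other 4 HD arrays lay between 10.59 and 10.63. The 5 arrays of each group were examined in this way for all 36 members, 72 groups in all, and this was the single such case, where chance gives about 1 in 20 groups.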

How the results depend on the processing

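Only control-row scaling moved a count of calls by over 1.5 times: 8785 genes were then higher instead of 5589, 12 members higher instead of 29 and 3 lower instead of 0, and the members' median change was 0.049 instead of 0.18. It also turned the sign of 11 members: Ccnb2 -0.064, Bub3 -0.0071, Cdc20 -0.042, Cenpe -0.11, Ndc80 -0.021, Tpx2 -0.019, Prc1 -0.12, Anln -0.052, Ect2 -0.063, Mki67 -0.20 and Top2a -0.071. By construction this scaling lowers bright HD rows relative to dim ones. Members near 0 changed sign elsewhere: after quantile normalization Cdc20 (-0.013), Cenpe (-0.015) and Prc1 (-0.020), and with array weights Cdc20 (-0.024) and Nusap1 (-0.024). Leaving out 1 array at a time gave 24 to 28 members higher and 0 lower, medians of 0.16 to 0.21, and 4704 to 5603 higher and 3063 to 3506 lower genes overall. In those runs Cdc20 ranged from -0.030 to 0.032, Cenpe from -0.0036 to 0.050, Prc1 from -0.0015 to 0.042 and Nusap1 from -0.043 to 0.045. The 5 called members that lost their call in some of those runs were Ccnb2, Bub1, Bub1b, Cenpa and Tpx2, all 5 of them without LD replicate 1 (adjusted p 0.055, 0.10, 0.12, 0.065 and 0.084) or LD replicate 4 (0.064, 0.094, 0.10, 0.064 and 0.090), and these 5 were also the ones lost with no filter or after median centring. With the replicate block 26 members were higher and 0 lower, beside 5654 higher and 3404 lower of all 17800 genes tested. Bub1, Bub1b and Cenpa lost their calls there. The replicate numbers mark no known pairs, and 1 of the 10 arrays correlated best with the other group's array of its own number. The 5 NDC80 pair differences past the threshold stayed past it under the 3 scalings and without any 1 array.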
